A study of Mus musculus with 6 samples.

Results

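The genes described here build the acetylcholine receptor of skeletal muscle and gather it at the neuromuscular junction. They are 10 of the 24421 gene symbols in the deposited count table, taken by symbol: 5 receptor subunits (Chrna1, Chrnb1, Chrnd, Chrng and Chrne) and 5 genes of the clustering pathway (Agrn, Lrp4, Musk, Dok7 and Rapsn). The set was chosen by a person or model who had seen the differences between shGAA and shScrambled cultures in these data, so the differences of the members are given as a description and carry no p-value. RNA came from C2C12, an established mouse myoblast line, in 2 groups of 3 libraries. One group received a lentivirus with a hairpin against Gaa, the gene of lysosomal acid alpha-glucosidase (shGAA), and the other a lentivirus with a scrambled hairpin (shScrambled). Cells of both groups were selected with puromycin, grown with 10% fetal bovine serum and differentiated into myotubes in 2% horse serum with 4.5 g/l glucose. The word Fed stands in the titles of both groups without explanation. These are cultures of a muscle line alone, with no motor neuron, and the labels do not say if a group's libraries stem from different cultures.

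The receptor is a ring of subunits that opens a cation channel when acetylcholine binds. Embryonic and denervated muscle builds it from the alpha, beta, delta and gamma subunits, and adult synapses exchange gamma for epsilon. At the developing junction, agrin from the nerve binds LRP4 on the muscle surface, LRP4 activates the receptor tyrosine kinase MuSK together with the adaptor DOK7, and the scaffold protein rapsyn then holds the receptors in dense clusters. Myotubes in culture make these proteins too and form receptor clusters when agrin is added.

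Libraries held 9224038 to 10430270 counts, and the first principal component of all tested genes separated the groups. The library shScrambled 1 lay apart from shScrambled 2 and 3 on the second component, which held 13.4% of the variance. The targeted gene Gaa was at 42.1% of its shScrambled level in shGAA. Of 10 myotube markers, 9 had enough counts to be tested, of which 8 were lower in shGAA and Tnnt3 was not called. The untested marker Actn2 had 2 to 3 counts per library in shGAA and 4 to 10 in shScrambled. The summed level of the 10 markers was 2235 to 2448 CPM (counts scaled to a common library size) in shGAA and 3057 to 3436 CPM in shScrambled, a ratio of 0.743. Des supplied most of that sum, with means of 1664 CPM in shGAA and 2047 CPM in shScrambled. The 8 lower markers ranged from 42.3% (Myh3) to 81.3% (Des) of the shScrambled level, with Mymk at 47.3%, Ckm at 52.2% and Tnnc1 at 52.5%. Myog and Myh3, which return below, are on that list. Among the markers of nerve, the neuron genes Snap25, Slc18a3 and Chat and the Schwann cell gene Sox10 had no counts. The summed neuron markers were at 9.81 to 11.1 CPM in shGAA and 6.08 to 6.37 CPM in shScrambled, nearly all of it Stmn2, which was called higher. Leukocyte markers summed to at most 3.60 CPM and endothelial markers to at most 2.68 CPM in any library, with Itgam, Cd3e and Tie1 at 0. In bulk RNA, fewer cells of a type and less RNA per cell cannot be told apart, and the part of the lower myotube markers in the differences below was not tested.

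The members divided. All 4 receptor subunits with enough counts for a test were lower in shGAA, whereas 3 clustering genes were higher and 2 were lower. The delta subunit was at 41.3%, the gamma subunit at 45.4% and Dok7 at 47.4% of the shScrambled level, while Lrp4 was 1.83-fold and Agrn 1.57-fold above it. Chrne was the only member left out by the filter on low counts. In the fit over all genes, 6 of the 9 tested members were called lower and 3 higher at an adjusted p under 0.05. Over all 11801 tested genes 38.2% were called, 19.7% lower and 18.5% higher. For each of the 9 the libraries of the groups did not overlap in CPM, which held for 49.6% of all tested genes. Because the set was chosen with this contrast known, nothing is read from these counts.

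**Figure D1:**
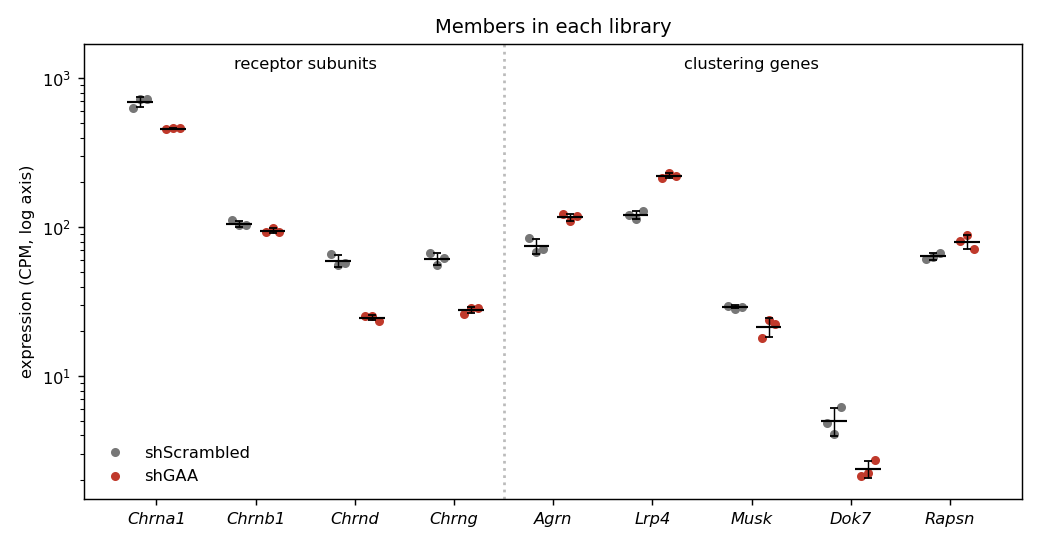
Expression of the 9 members with counts in each of the 6 libraries, in CPM on a log axis, with the mean as a line and the SD as a bar (n = 3 libraries per group). Grey points are shScrambled and red points shGAA. Red points lie below grey ones for Chrna1, Chrnb1, Chrnd, Chrng, Musk and Dok7 and above them for Agrn, Lrp4 and Rapsn.

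Chrnd, the delta subunit, had the largest difference of the set. It was at 66.4, 55.5 and 57.3 CPM in shScrambled 1 to 3 and at 25.3, 25.3 and 23.5 CPM in shGAA 1 to 3. Every shGAA library was thus far below the lowest control. The log2 fold change was -1.28 ± 0.08 (SE), which left 41.3% of the shScrambled level, and 107 of 11801 tested genes had a lower fold change. Chrnd lies on chromosome 1 at 87190597 to 87200070 (RefSeq, GRCm38.p6), on the plus strand. Chrng, the embryonic gamma subunit, follows it on the same strand at 87205811 to 87211835, with 5740 bases between them. It was at 66.8, 55.6 and 61.7 CPM in shScrambled and 26.2, 28.6 and 28.9 CPM in shGAA, a log2 fold change of -1.14 ± 0.08. These neighbours moved by nearly the same amount. Their ratio per exonic kilobase overlapped between the groups, at 0.812 ± 0.033 (SD) Chrng per Chrnd in shScrambled and 0.893 ± 0.0773 in shGAA.

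Chrna1 encodes the alpha subunit, which carries most of the acetylcholine binding site, and was the most abundant member. It was at 632.9, 723 and 730.3 CPM in shScrambled and at 455, 462 and 464 CPM in shGAA. The shGAA libraries were nearly equal and all below the lowest control. The log2 fold change of -0.60 ± 0.05 left 66.2% of the shScrambled level. Chrna1 lies on the minus strand of chromosome 2 at 73563281 to 73580338. It has 3.02% of its 50-base stretches in common with other genes, of which Gm48735 shares the most. Chrnb1, the beta subunit (chromosome 11, 69784036 to 69795966, minus strand), differed least. It was at 111, 103 and 103 CPM in shScrambled and 92.5, 98.8 and 93.1 CPM in shGAA, so the groups did not overlap but lay close. Its log2 fold change was -0.16 ± 0.06, or 89.6% of the shScrambled level. Its call ended under scaling by library size alone, in DESeq2, with the replicate number as a block, and without shGAA 1, shGAA 3 or shScrambled 1, with log2 fold changes between -0.16 and -0.11.

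Chrne, the adult epsilon subunit (chromosome 11, 70614883 to 70619213, minus strand), had 0 counts in all 6 libraries. A count of 0 allows up to 3 counts per library, which is 0.288 to 0.325 CPM and covers counting error only. In GENCODE M21 no exon of another gene lies over its exons (0%) and 0% of its 50-base stretches recur in other genes. Per exonic kilobase, Chrng was about 34.3 to 40.7-fold higher than this limit in the shGAA libraries and about 71.6 to 89.6-fold higher in the shScrambled libraries. The limit uses plain library totals, whereas the Chrng values include the TMM scaling factors, which were 0.979 to 1.02. Of these alternative subunits, gamma alone was detected at this depth.

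The promoters of the 4 subunits with a window are shown because these genes differed in size of change, from -1.14 for Chrng and -0.60 for Chrna1 to -0.16 for Chrnb1 on the log2 scale, with Chrne undetected. E-boxes (CANNTG, the same on both strands) are the letters that MyoD-family factors bind, and the N-box (CCGGAA, or TTCCGG on the other strand) is bound by ETS factors at synaptic genes. RefSeq windows on GRCm38.p6 run from 250 bases before to 50 after a transcript start, 5′ to 3′ on the gene's strand. Of the 10 members 7 had a window, and Chrnd, Lrp4 and Rapsn had none. Matches to CANNTG and CCGGAA are in capitals.
Chrna1, chr2:73580289-73580588, minus strand: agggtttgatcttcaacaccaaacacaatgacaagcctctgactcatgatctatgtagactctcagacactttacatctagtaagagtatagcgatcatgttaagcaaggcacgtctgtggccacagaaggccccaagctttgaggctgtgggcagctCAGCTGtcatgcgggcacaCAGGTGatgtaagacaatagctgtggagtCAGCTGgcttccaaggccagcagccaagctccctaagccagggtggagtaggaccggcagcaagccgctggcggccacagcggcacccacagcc
Chrng, chr1:87205561-87205860, plus strand: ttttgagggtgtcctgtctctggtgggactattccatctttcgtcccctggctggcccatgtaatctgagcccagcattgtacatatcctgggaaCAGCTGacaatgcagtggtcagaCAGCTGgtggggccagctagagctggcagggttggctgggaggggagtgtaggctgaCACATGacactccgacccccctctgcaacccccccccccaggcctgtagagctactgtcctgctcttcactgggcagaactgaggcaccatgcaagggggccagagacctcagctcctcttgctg
Chrnb1, chr11:69795888-69796187, minus strand: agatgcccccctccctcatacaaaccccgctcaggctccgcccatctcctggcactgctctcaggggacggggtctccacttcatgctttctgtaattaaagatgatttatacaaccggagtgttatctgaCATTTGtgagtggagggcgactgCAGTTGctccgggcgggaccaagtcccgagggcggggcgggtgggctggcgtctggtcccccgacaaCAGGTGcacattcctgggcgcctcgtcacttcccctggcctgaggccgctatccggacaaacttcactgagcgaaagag
Chrne, chr11:70619145-70619444, minus strand: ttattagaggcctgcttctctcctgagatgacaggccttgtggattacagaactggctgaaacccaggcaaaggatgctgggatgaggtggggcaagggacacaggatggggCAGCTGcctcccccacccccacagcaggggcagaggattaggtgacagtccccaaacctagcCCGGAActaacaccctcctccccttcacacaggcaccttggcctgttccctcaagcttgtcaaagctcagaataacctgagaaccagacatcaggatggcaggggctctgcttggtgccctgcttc

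The windows of Chrna1, Chrng and Chrnb1 each held 3 CANNTG matches, and 17.6% of all 32851 windows in the table held at least 3. The central letters differed. Chrna1 and Chrng each held 2 copies of CAGCTG, and 1.9% of all windows held at least 2. In Chrna1 they began 92 and 44 bases before the start and in Chrng 155 and 132 bases before it. Chrnb1 held none, and its matches began 119, 96 and 29 bases before the start. Chrne held 1 CAGCTG, 138 bases before its start, and was the only member with a CCGGAA match in its window, 76 bases before the start. At least 1 CAGCTG was in 16.3% of all windows and at least 1 CCGGAA or TTCCGG in 14.9%. These matches are letters in a window, and binding was not measured.

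Because the subunits fell by unequal amounts, their proportions within a library differed between the groups. Such ratios do not depend on how libraries are scaled. Per exonic kilobase, Chrnb1 per Chrnd was 2.18, 2.41 and 2.33 in shScrambled 1 to 3 and 4.74, 5.08 and 5.15 in shGAA 1 to 3, a 2.16-fold difference with no overlap. Chrna1 per Chrnd was 8.82 ± 1.45 (SD, n = 3) in shScrambled and 14.0 ± 0.71 in shGAA. Chrna1 per Chrng was 10.9 ± 1.70 in shScrambled and 15.7 ± 0.714 in shGAA, again without overlap. Chrna1 per Chrnb1 went the other way, from 3.81 ± 0.456 to 2.80 ± 0.0943. In shGAA the receptor RNAs thus held relatively more beta and less delta and gamma, with alpha between them. Whether receptor protein followed was not measured.

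**Figure D2:**
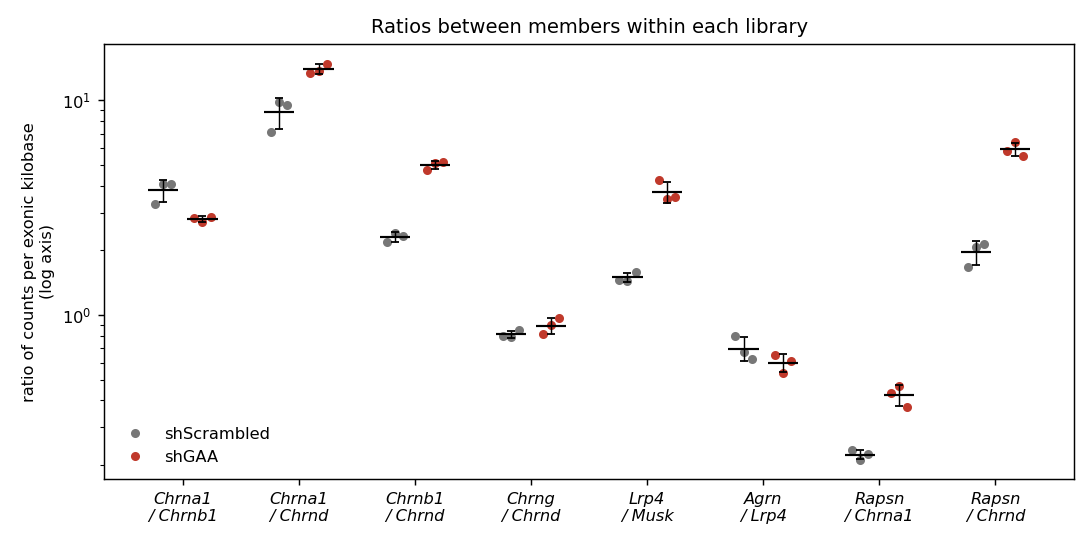
Ratios between members in each library, as counts per exonic kilobase of the first gene over the second, on a log axis, with the mean as a line and the SD as a bar (n = 3 per group). The ratio of Chrng to Chrnd overlaps between shScrambled (grey) and shGAA (red), as does that of Agrn to Lrp4, while the other ratios shown are apart.

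The clustering genes are described in the order of the pathway. Agrn encodes agrin, which muscle makes as well as nerve. The isoform that clusters receptors carries short alternative exons, which a count per gene cannot show. Agrn was at 84.7, 68.0 and 71.0 CPM in shScrambled and at 122, 110 and 119.7 CPM in shGAA. All shGAA libraries were at 110 CPM or more, and the log2 fold change was 0.65 ± 0.07. The gene lies on the minus strand of chromosome 4 at 156165290 to 156197533. Lrp4, the agrin receptor (chromosome 2, 91457456 to 91513901, plus strand), had the largest rise of the set. It was at 120.5, 114 and 129 CPM in shScrambled and 213, 231 and 221 CPM in shGAA, a log2 fold change of 0.87 ± 0.06, and 261 of 11801 tested genes had a higher one. Both RNAs were thus higher in shGAA, with an Agrn per Lrp4 ratio of 0.697 ± 0.0883 in shScrambled and 0.60 ± 0.0556 in shGAA. The groups overlapped in this ratio only through shGAA 1 (0.648) and shScrambled 3 (0.623). Within shGAA, Agrn was lowest in shGAA 2, where Lrp4 was highest.

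Musk encodes the kinase that LRP4 activates (chromosome 4, 58285729 to 58377848, plus strand), and it did not follow Lrp4. It was at 29.8, 28.5 and 29.2 CPM in shScrambled and at 18.1, 24.0 and 22.6 CPM in shGAA. The controls were close together and the shGAA libraries spread more, with shGAA 1 lowest. The log2 fold change was -0.44 ± 0.10, and without shGAA 1 it was -0.33. Per exonic kilobase there were 1.45, 1.44 and 1.58 Lrp4 per Musk in shScrambled and 4.24, 3.46 and 3.53 in shGAA, a 2.50-fold difference. Dok7, the adaptor that switches MuSK on (chromosome 5, 35056571 to 35087839, plus strand), was the scarcest member tested. It had 47, 38 and 58 counts in shScrambled and 21, 21 and 29 in shGAA, or 5.03 ± 1.07 (SD) against 2.37 ± 0.311 CPM. Its log2 fold change of -1.08 ± 0.23 had the widest error of the set. Without shScrambled 3, its highest library, it was -0.90.

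Rapsn encodes rapsyn, the scaffold that binds the receptor from inside the cell (chromosome 2, 91035472 to 91045729, plus strand). It was at 60.8, 62.9 and 67.5 CPM in shScrambled and at 80.8, 88.1 and 71.1 CPM in shGAA. The groups came close, since shGAA 3 lay just above shScrambled 3. The log2 fold change was 0.33 ± 0.07, with 0.25 without shGAA 2 and 0.41 without shGAA 3. Set against the receptor, the scaffold RNA stood higher in shGAA by more than this. Rapsn per Chrna1 was 0.234, 0.212 and 0.225 in shScrambled and 0.432, 0.465 and 0.374 in shGAA, and Rapsn per Chrnd was 3.01-fold higher in shGAA. Rapsn has 0.222% of its exonic bases under Gm13778 on the opposite strand.

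Windows of Musk and Agrn are shown as a member of the clustering group that was lower and one that was higher, marked as before.
Musk, chr4:58285712-58286011, plus strand: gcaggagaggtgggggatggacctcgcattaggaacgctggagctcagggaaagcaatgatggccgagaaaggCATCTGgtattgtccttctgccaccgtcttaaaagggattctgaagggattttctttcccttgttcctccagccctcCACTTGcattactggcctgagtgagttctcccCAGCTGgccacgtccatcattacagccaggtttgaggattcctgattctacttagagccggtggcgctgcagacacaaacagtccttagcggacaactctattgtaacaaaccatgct
Agrn, chr4:156197439-156197738, minus strand: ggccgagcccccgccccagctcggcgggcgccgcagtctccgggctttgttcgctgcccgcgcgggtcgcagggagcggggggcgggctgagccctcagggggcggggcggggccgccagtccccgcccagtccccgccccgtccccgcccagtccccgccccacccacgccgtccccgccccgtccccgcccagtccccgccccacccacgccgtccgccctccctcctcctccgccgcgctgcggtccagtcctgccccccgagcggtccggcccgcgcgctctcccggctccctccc

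The Musk window held 3 CANNTG matches, of which the CAGCTG began 68 bases before the start. The Agrn window held no CANNTG, against 72.3% of all windows with at least 1. It was 83.3% G and C, where the median window had 52.7%, and held 12 matches to GGGCGG or its reverse CCGCCC, the letters bound by Sp1-type factors. At least 3 such matches were in 10.7% of all windows. The share with 12, or among windows as rich in G and C, was not counted. Such matches were also in windows of members that were lower, with 4 in Chrnb1 and 2 and 4 in the Dok7 windows. The windows of Chrna1, Chrng and Musk, also lower, held 0. A further Agrn window, at an internal start on chr4:156186210-156186509, held 1 CANNTG. Dok7 had 1 CANNTG in one of its 2 windows and none in the other, and neither held the CAGCTG form.

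Compared as groups, the receptor subunits had a median log2 fold change of -0.87 over 4 tested genes and the clustering genes 0.33 over 5, against 0.01 (rounded) over all tested genes. The difference of -1.19 was -0.86 with means in place of medians and -0.98 without Rapsn, because Musk and Dok7 lay on the receptor side. In each library, the mean log2 CPM of the receptor subunits exceeded that of the clustering genes by 1.77, 1.79 and 1.65 in shScrambled 1 to 3 and by 0.93, 0.88 and 0.84 in shGAA 1 to 3. Summed receptor CPM was 877 to 952 in shScrambled and 599 to 614 in shGAA, while summed clustering CPM was 278 to 303 and 436 to 455. The clustering group therefore did not move as one, and its mean log2 fold change was 0.07.

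**Figure D3:**
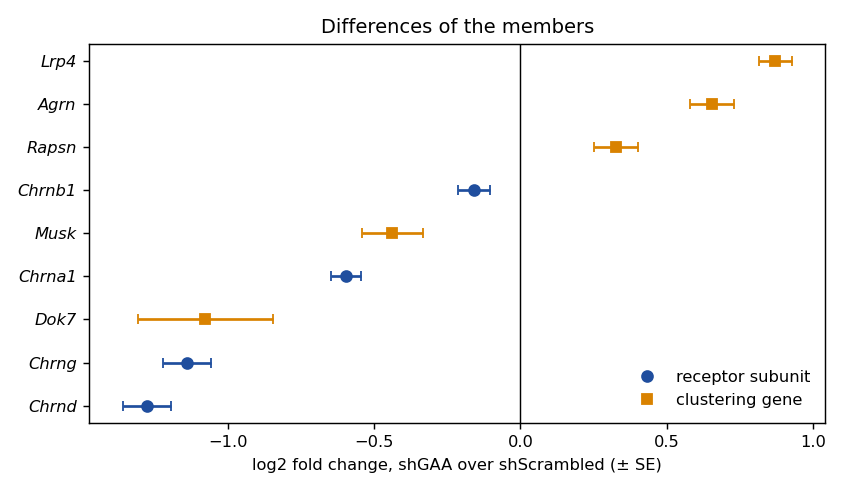
Log2 fold change of shGAA over shScrambled for the 9 tested members, ordered by size, with its SE as a bar (n = 3 libraries per group). Blue circles are receptor subunits, all left of 0, and orange squares are clustering genes, with Dok7 at -1.08 and Musk at -0.44 left of 0 and Rapsn, Agrn and Lrp4 right of it.

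Levels of different genes were compared as CPM per kilobase of the union of their GENCODE M21 exons. In shScrambled the order was Chrna1 (159 ± 12.4, SD), Chrnb1 (41.8 ± 1.89), Rapsn (35.4 ± 1.88), Chrnd (18.2 ± 1.77), Chrng (14.7 ± 1.34), Lrp4 (11.5 ± 0.691), Agrn (8.03 ± 0.958), Musk (7.72 ± 0.178) and Dok7 (1.18 ± 0.25). Of these neighbours Agrn and Musk overlapped between libraries and the others did not. In shGAA, Rapsn (44.4 ± 4.73) stood above Chrnb1 (37.5 ± 1.38), and Lrp4 (21.1 ± 0.847) and Agrn (12.6 ± 0.69) stood above Chrnd (7.51 ± 0.319) and Chrng (6.69 ± 0.358). Chrng and Musk (5.71 ± 0.818) overlapped there. The agrin receptor RNA was thus below both the delta and gamma RNAs in the controls and above both in shGAA. With the longest transcript as the length, Chrng came out above Chrnd in both groups (22.1 and 20.3 per kilobase in shScrambled) and Lrp4 kept its place relative to them.

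The control library that stood apart also did so for some members, in differing directions. Relative to the mean of shScrambled 2 and 3 on the log2 scale, shScrambled 1 was higher for Agrn by 0.29, for Chrnd by 0.23 and for Chrng by 0.19. It was lower for Chrna1, with a difference of -0.20. For Myog it was higher by 0.33 and for Myh3 by 0.76. Without this library the log2 fold changes were -1.19 for Chrnd, -1.07 for Chrng, -0.66 for Chrna1 and 0.76 for Agrn, and Lrp4 stayed at 0.87. No member's sign depended on it.

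Other genes of the synapse were followed in 9 lists with 114 genes in all, of which 90 were tested. In edgeR 19 of these were higher and 24 lower in shGAA, together 47.8%, with a median log2 fold change of -0.01. Over all tested genes 38.2% were called, 18.5% higher and 19.7% lower, which is the share to read each list's count against. The lists were chosen with earlier results of these data known, so a share above that is not read as a result. The lists mostly split between directions, as the plot of list counts shows.

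**Figure D4:**
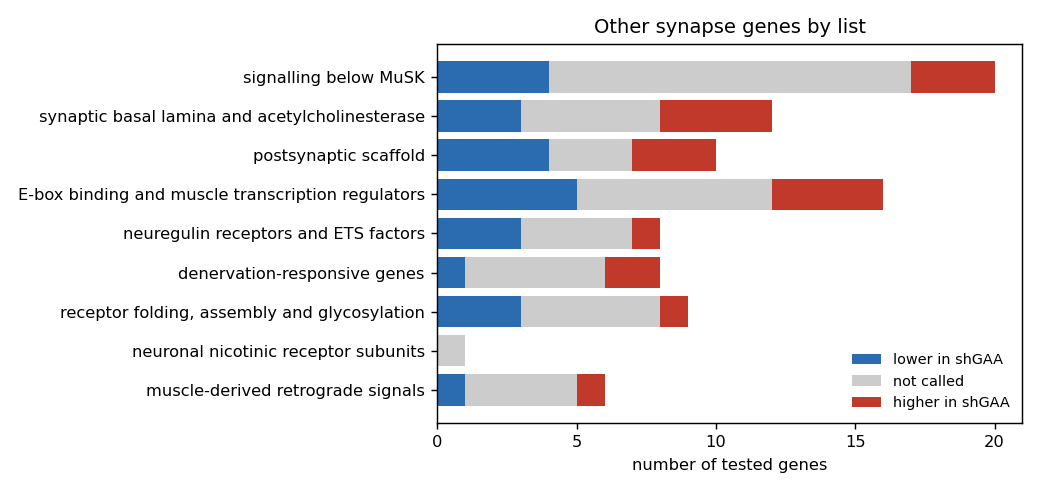
Number of tested genes per list that were lower in shGAA (blue), not called (grey) or higher in shGAA (red) at an adjusted p under 0.05 in edgeR. Every list with more than 1 tested gene holds calls in both directions.

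Among transcription regulators that bind or act on E-box genes, 4 of 16 tested were higher and 5 lower (7 higher without shScrambled 1), with a median of 0.05. Myog, the myogenic factor that drives receptor genes in differentiating muscle, was at 58.0, 49.6 and 42.9 CPM in shScrambled and 37.1, 38.6 and 36.3 CPM in shGAA, and fell by 0.43 ± 0.09 on the log2 scale (adjusted p = 0.00208). Id3, an inhibitor of such factors, rose by 0.75 ± 0.08, from 64.3 to 108.5 CPM (adjusted p = 4.59e-06). Hdac9, whose muscle product represses MEF2 targets and receptor genes, rose by 0.98 ± 0.10, from 14.1 ± 0.876 to 27.7 ± 1.56 CPM (adjusted p = 1.03e-06). Myf5, a factor of myoblasts, rose by 0.51 ± 0.10 and Mef2a by 0.27 ± 0.05. The other lower genes were Mef2c (from 8.06 to 5.17 CPM, adjusted p = 0.00346), Mef2d (adjusted p = 0.00536), Hdac5 (adjusted p = 0.00621) and Tcf3 (adjusted p = 0.00800). Hdac5 thus went the other way from Hdac9. The related genes Id1 (adjusted p = 0.625), Id2 (adjusted p = 0.162) and Hdac4 (adjusted p = 0.107) were not called. Whether any of these regulators acted on the receptor genes here was not tested. Myod1, named after its values were seen, was at 0.04 ± 0.07 (adjusted p = 0.684), and its sign changed without shGAA 2 (-0.0076) or shScrambled 2 (-0.0155).

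Neuregulin and its ErbB receptors act on synaptic genes through ETS factors. Of 8 tested genes, 1 was higher and 3 lower. The ETS factor genes Etv4 (-0.58 ± 0.07, adjusted p = 3.13e-06) and Ets2 (-0.24 ± 0.05, adjusted p = 0.00197) and the receptor gene Erbb3 (-0.75 ± 0.17, adjusted p = 0.00266, at 7.51 against 4.44 CPM) fell. Nrg1 itself rose by 0.72 ± 0.17, from 7.60 to 12.6 CPM (adjusted p = 0.00385). The ETS factor genes Gabpa (adjusted p = 0.430) and Etv5 (adjusted p = 0.953) were not called, nor were Gabpb1 (adjusted p = 0.790) and Erbb2 (adjusted p = 0.333). Erbb4 had no counts.

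Below MuSK, 3 of 20 tested signalling genes were higher and 4 lower, with a median of -0.01 and 1 higher without shGAA 2. Pak1, a kinase that acts on the actin cytoskeleton, fell by 0.50 ± 0.05 (adjusted p = 1.50e-06) and Cttn, the actin regulator cortactin, by 0.27 ± 0.05 (adjusted p = 0.000207). The phosphatase gene Ptpn11 changed by -0.16 ± 0.04, and the kinase gene Fyn rose by 0.25 ± 0.05 (adjusted p = 0.00164).

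In the postsynaptic scaffold 3 of 10 tested genes were higher and 4 lower (2 lower without shGAA 1 or shGAA 2), with a median of -0.14. Utrn, the utrophin that lies under receptor clusters, rose by 0.22 ± 0.05, from 366 ± 18.3 to 428 ± 2.84 CPM (adjusted p = 0.00104), and the syntrophin gene Sntb1 by 0.54 ± 0.07 (adjusted p = 1.54e-05). Plec, the cytoskeletal linker plectin, fell by 0.37 ± 0.05 (adjusted p = 1.19e-05). Syne1, a nuclear envelope anchor, fell by 0.31 ± 0.08 (adjusted p = 0.0131), and without shGAA 1 or shGAA 3 the adjusted p was 0.0556 and 0.0615.

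The basal lamina and acetylcholinesterase list had 4 higher and 3 lower of 12 tested genes, with a median of 0.04. Nidogen 1 (Nid1) fell by 0.56 ± 0.05, from 1077 ± 63.8 to 732 ± 26.1 CPM (adjusted p = 1.76e-07), with the laminin chain genes Lamc1 (-0.33 ± 0.06) and Lama5 (-0.25 ± 0.05). Lama2, the laminin chain of the muscle basement membrane, rose by 0.41 ± 0.05 (adjusted p = 7.36e-06). Ache, which encodes acetylcholinesterase, had 2, 1 and 3 counts in shScrambled and 4, 8 and 6 in shGAA and was too low to test. Colq, its collagen tail, was at -0.55 ± 0.48 (adjusted p = 0.379) with 4 to 12 counts per library. Acetylcholinesterase, the enzyme that ends synaptic transmission, was thus hardly present as RNA in either group. Bche, the butyrylcholinesterase gene, was at 16.6 CPM in shScrambled and 21.2 CPM in shGAA and was called higher (adjusted p = 0.0196).

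Of 8 tested genes known to rise in denervated muscle, 2 were higher and 1 lower. Gadd45a, with 19.1% of its exonic bases under E230016M11Rik on the opposite strand, rose by 0.25 ± 0.06 (adjusted p = 0.00287) and the adhesion gene Ncam1 by 0.22 ± 0.06 (adjusted p = 0.0119, but 0.0646 without shGAA 1 and 0.0576 without shScrambled 2). Embryonic myosin Myh3 fell by 1.24 ± 0.28 (adjusted p = 0.0280), with 0.0755 to 0.0996 when any one shGAA library was left out. The count of lower genes was 2 without shScrambled 1 and with no filter on low counts, and 3 without shScrambled 2. Chrng, itself a gene of embryonic and denervated muscle, went down while Ncam1 and Gadd45a went up.

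Among 9 tested genes for receptor folding, assembly and glycosylation, 1 was higher and 3 lower. Rer1, which retains unassembled subunits early in the secretory pathway, fell by 0.31 ± 0.05 (adjusted p = 0.000298) and the glycosylation gene Alg14 by 0.41 ± 0.10 (adjusted p = 0.00387). Alg2, also of glycosylation, rose by 0.23 ± 0.07 (adjusted p = 0.0133) and was at 0.0552 without shGAA 2. The chaperone gene Hspa5 changed by -0.15 ± 0.05 (adjusted p = 0.0286), and its call ended under scaling by library size alone (0.112) and without each of shGAA 1 to 3, shScrambled 1 or shScrambled 2 (adjusted p = 0.0503 to 0.120). Of 6 tested retrograde signals, the neurotrophin gene Bdnf rose by 0.49 ± 0.09 (adjusted p = 0.000519), though 14.4% of its exonic bases lie under Gm45346 on the opposite strand, and Sirpa fell by 0.36 ± 0.09 (adjusted p = 0.00959, and 0.0531 without shGAA 3). Higher genes of that list numbered 2 under scaling by library size alone, with no filter, and without shGAA 1 or shScrambled 3, and lower genes 2 with no filter or without shScrambled 3. Of 11 neuronal nicotinic subunit genes 7 had no counts in any library, and Chrnb2, named after its values were seen, was the only one tested, at 1.61 against 0.988 CPM (0.70 ± 0.38, adjusted p = 0.153). Of the exonic bases of Chrnb2, 16.3% lie under Adar on the opposite strand.

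The genes whose level followed the summed receptor CPM most closely over the 6 libraries were sought among 10244 genes with a mean of at least 5 CPM. Pkig (Pearson r = 0.999), Aqp1 (0.998), Cltb (0.998), Lmo7 (0.998) and Hip1r (0.997) came first. Their log2 fold changes were -0.62 ± 0.06, -0.97 ± 0.05, -0.67 ± 0.06, -0.26 ± 0.05 and -0.63 ± 0.07. With 6 libraries in 2 groups, such values describe mainly the difference between the groups. Chrna1 supplied most of the summed receptor CPM, with means of 695 CPM in shScrambled and 460 CPM in shGAA. Among the controls the sum was lowest in shScrambled 1, where Chrnb1, Chrnd and Chrng were highest, so the ranking mainly reflects Chrna1.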

How the data were processed

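The authors deposited whole-number counts of reads for each gene symbol in 6 libraries, in 1 table. The submitters' processing notes name HISAT2 2.1.0, Subread, FastQC, edgeR and the build mm10. For annotation, strand use and multi-mapping reads the labels state nothing. Genes were kept by filterByExpr (11801 of 24421) and scaled by TMM. They were tested with edgeR 4.0.16 (R 4.3.3, robust quasi-likelihood F-test, a model of group alone), and p-values were adjusted by Benjamini-Hochberg across the 11801 genes. Genes were called at an adjusted p under 0.05. The SE is the fitted coefficient over the square root of F. CPM uses TMM-scaled library sizes, given as mean ± SD over 3 libraries. With separate cultures unstated, p-values reflect spread among these libraries alone, perhaps technical. The code was tested on simulated data. Lengths are from GENCODE M21, and positions and promoters from RefSeq GRCm38.p6.

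The members, the 9 lists and the markers were chosen with earlier results of these data known. Named genes were the members, up to 4 called genes per list with the smallest adjusted p, Myog, Ache, Utrn, Colq and Gaa, and the 5 genes most like the summed receptor level. Mymk and Tmem35a were read under the older names Tmem8c and Tmem35. Alternatives were 7 other settings and leaving out each of the 6 libraries, with DESeq2 1.42.0 and limma 3.58.1 among them. Transcript length, and the same alternatives for Gaa, the 5 receptor-like genes, Myod1 and Chrnb2, were added after the data were seen. Mef2c, Mef2d, Hdac4, Hdac5, Id1, Id2, Tcf3, Gabpa, Gabpb1, Etv5, Erbb2, Bche and further markers were named after their values were seen, without these alternatives.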

Additional observations from a re-analysis of the deposited data

How the results depend on the processing

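No member changed sign under the 13 alternative fits. These were scaling by library size alone, DESeq2 size factors, no filter on low counts, DESeq2 and limma-voom. The others were a non-robust fit, the replicate block and leaving out each library. Of the other named genes followed under these fits, only Myod1 changed sign (0.04, with -0.0155 to 0.0857 when libraries were left out). The cell type markers other than Myog and Myh3 were not followed, nor were the genes listed above as without these alternatives. Of 117 alternative values of the 9 tested members, 111 kept their call and 6 lost it, all of Chrnb1. The fits draw on the same 6 libraries and the members were chosen with this contrast known, so this count is a description. The difference between the medians of receptor subunits and clustering genes was -1.19, with -1.29 to -1.13 when libraries were left out. It was -0.86 with means and -0.98 without Rapsn. Genes called numbered 4512, with 3540 to 4863 when libraries were left out and 3534 in DESeq2. Higher genes made up 48.4% of the calls, and 60.0% under scaling by library size alone. That scaling moved the median log2 fold change of all tested genes from 0.01 to 0.05. Same-numbered libraries of the groups did not deviate together, with correlations of -0.04, 0.06 and -0.01 over tested genes. With the replicate block 4234 genes and 8 members were called. Among members depth limits Dok7 most, and Ache, Colq and Chrnb2 had fewer counts still.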
